A study of Mus musculus with 6 samples.

Results

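The plasminogen activation genes described here are 6 genes, taken as the rows whose symbol is Plat, Plau, Plaur, Serpine2, Anxa2 or S100a10, of 12911 genes listed for each library. All 6 were found, each as 1 row with 1 RefSeq transcript, and all 6 passed the filter on low counts, which left 12786 genes for testing. The RNA came from sorted glomerular endothelial cells, which line the fenestrated capillaries of the kidney's filter, of eNOS-null mice, which lack endothelial nitric oxide synthase. Both groups carried this genotype. The control group had no treatment, and the STZ group had received streptozotocin, a beta cell toxin used to model diabetes. Each group had 3 libraries, here called pools, and each pool held RNA of 4 mice, so every SD, SE and p-value here reflects variation among pools rather than animals. Cells were sorted by EYFP after bead isolation and digestion of glomeruli. The promoter that drives EYFP, the age and sex of the mice, and the dose and time of STZ are not given in the labels used here.

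Plasminogen is a circulating zymogen, and plasmin, its active form, dissolves fibrin and cuts matrix proteins. Tissue-type activator (tPA, from Plat) works mainly on fibrin and urokinase (uPA, from Plau) mainly at cell surfaces, where it is held by its receptor uPAR (from Plaur). Annexin A2 (Anxa2) and its partner p11 (S100a10) form a surface complex that binds plasminogen and tPA, and serpins such as protease nexin-1 (Serpine2) trap the activators in inactive complexes. Endothelial cells are a main source of tPA in the circulation.

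In the mm10 build the genes lie on 6 chromosomes. Plat (NM_008872) spans chromosome 8 from 22757744 to 22782848 on the plus strand and has 14 exons in the GENCODE transcript paired with it, Plau (NM_008873) chromosome 14 from 20836662 to 20843388 on the plus strand with 11 exons, and Plaur (NM_011113) chromosome 7 from 24462500 to 24475873 on the plus strand with 7 exons. Serpine2 (NM_009255) spans chromosome 1 from 79794321 to 79858665 on the minus strand with 9 exons. Anxa2 (NM_007585) spans chromosome 9 from 69453683 to 69491785 on the plus strand with 13 exons, and S100a10 (NM_009112) chromosome 3 from 93555117 to 93564645 on the plus strand with 3 exons. All 6 are protein-coding. An antisense gene, Gm16144, lies within Anxa2 on the other strand, and no source used here says whether counting used strand, so reads of that partner cannot be told apart from Anxa2 reads. The microRNA gene Mir3109 also lies within Anxa2, and no annotated gene overlaps the other 5 members.

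RefSeq promoter sequence (GRCm38.p6, the mm10 assembly) was matched for 3 of the 6 members, Serpine2, Plaur and Anxa2, and Plat, Plau and S100a10 had no entry in the table used. The 250 bases before the start given in that table are shown 5′ to 3′ on the gene's strand, and its start equals the one listed with the counts for Anxa2 and Serpine2 but lies 17 bases upstream of it, at 24462483, for Plaur. These 3 genes are shown because only they had an entry, and not for their patterns across the pools. Their roles differ (inhibitor, receptor of urokinase, receptor of plasminogen). Capitals mark every match, on either strand, to one of 3 motifs. The element of AP-1 type was searched as TGANTCA. The Sp1-type motif was searched as GGGCGG, and its neighbouring matches may overlap and then run together. The core promoter motif that binds TBP was searched as TATAAA.
Plaur, chr7:24462233-24462482, plus strand: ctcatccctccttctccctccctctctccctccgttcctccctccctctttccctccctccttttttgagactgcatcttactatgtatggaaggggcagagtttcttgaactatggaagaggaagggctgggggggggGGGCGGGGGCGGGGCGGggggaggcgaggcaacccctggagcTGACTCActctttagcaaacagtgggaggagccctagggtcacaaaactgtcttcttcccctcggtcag
Anxa2, chr9:69453433-69453682, plus strand: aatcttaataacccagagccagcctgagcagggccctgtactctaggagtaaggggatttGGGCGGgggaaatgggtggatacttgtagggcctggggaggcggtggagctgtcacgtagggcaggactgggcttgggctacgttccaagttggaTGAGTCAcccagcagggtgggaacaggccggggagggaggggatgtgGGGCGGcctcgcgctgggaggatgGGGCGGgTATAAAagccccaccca
Serpine2, chr1:79858666-79858915, minus strand: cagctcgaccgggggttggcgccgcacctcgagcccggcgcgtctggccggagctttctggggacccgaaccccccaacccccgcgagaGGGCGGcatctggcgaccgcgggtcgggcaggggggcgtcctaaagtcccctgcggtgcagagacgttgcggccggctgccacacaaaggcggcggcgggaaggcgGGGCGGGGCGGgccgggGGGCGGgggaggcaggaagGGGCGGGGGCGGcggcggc

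The Plaur and Anxa2 sequences each held 1 match to TGANTCA, starting 69 and 95 bases before the start in the promoter table, and the Serpine2 sequence held 0. The TGANTCA letters occur in 6.75% of the 32851 promoters of the same length in the table. GGGCGG had 3 matches in Plaur, 3 in Anxa2 and 6 in Serpine2, and 32.7% of all promoters hold it. TATAAA was matched once, in Anxa2, 17 bases before the start, against 12.4% of all promoters. The Serpine2 window was 78.8% G and C, the Anxa2 window 62.4% and the Plaur window 59.6%. These are matches of letters and not measured binding.

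Before the results, some facts of the libraries bear on every comparison. Total counts ran from 4387339 to 8751732.5 in control and from 10734376 to 12662371.5 in STZ, so every STZ library was deeper. Pools of a group differed by more than counting error (chi-square per degree of freedom of 3.96 to 11.8 between pairs). Nos3, the gene the genotype targets, stood at 840 ± 80.5 CPM (counts scaled to a common library size by TMM; SD, n = 3) in control and 676 ± 68.3 in STZ, and gene counts do not show whether these transcripts carry the null allele. Sex-linked genes separated the groups completely, although no sex is labelled. Xist, which is transcribed from the inactive X chromosome, was at 709 ± 32.4 CPM in control and 0.687 ± 0.261 in STZ, and the Y-linked genes Ddx3y (means of 3.07 and 135 CPM), Eif2s3y (1.13 and 92.8), Kdm5d (2.72 and 42.0) and Uty (3.46 and 33.3) went the other way. Sex and STZ cannot be told apart, so a gene said here to have risen or fallen in STZ differed between pools that differ in both. All 10 glomerular endothelial markers were measured, with summed levels of 12810.0 to 14223 CPM in control and 17958 to 19235 CPM in STZ. Podocyte markers (10 of 10 measured) summed to 4557 to 7367 CPM in control and 4869 to 6067 CPM in STZ. Mesangial and mural markers (11 of 11 measured) summed to 1145 to 1246 CPM in control and 442 to 820 CPM in STZ. The tubule and parietal list (7 of 10 measured) summed to 126 to 455 and 28.2 to 217 CPM, the leukocyte list (6 of 9) to 96.8 to 106 and 86.4 to 94.0 CPM, and the erythroid list (5 of 5) to 21.8 to 59.1 and 125 to 206 CPM. Fewer cells of a type and less RNA per cell cannot be told apart in such bulk samples.

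The comparison of STZ with control pools asks how the sorted cells of treated animals differ from those of untreated ones on the same null background. Plat and Anxa2 rose in STZ, while Plau, Plaur, Serpine2 and S100a10 did not pass the test. Plat was 3.16-fold higher and Anxa2 1.29-fold higher. So 2 of the 6 members were called higher and 0 lower at an adjusted p under 0.05, beside 5.47% of all 12786 tested genes called higher and 4.32% called lower. At an unadjusted p under 0.05 there were 3 members, Plat, Anxa2 and Plaur, beside 24.2% of all tested genes. The median log2 fold change of the 6 was 0.28, and that of all tested genes was -0.01. In 3 members, Plat, Plaur and Anxa2, every STZ pool lay above every control pool, against 15.4% of all tested genes with that separation upward and 29.1% with it in either direction. With any of control pool 1, STZ pool 1 or STZ pool 3 left out, the count of called members was 1, Plat alone. With control pool 2 left out it was 2, Plat and Plaur. DESeq2 and limma-voom each called the same 2 members, and neither these tools nor edgeR at an unadjusted p under 0.05 called any member lower.

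**Figure D1:**
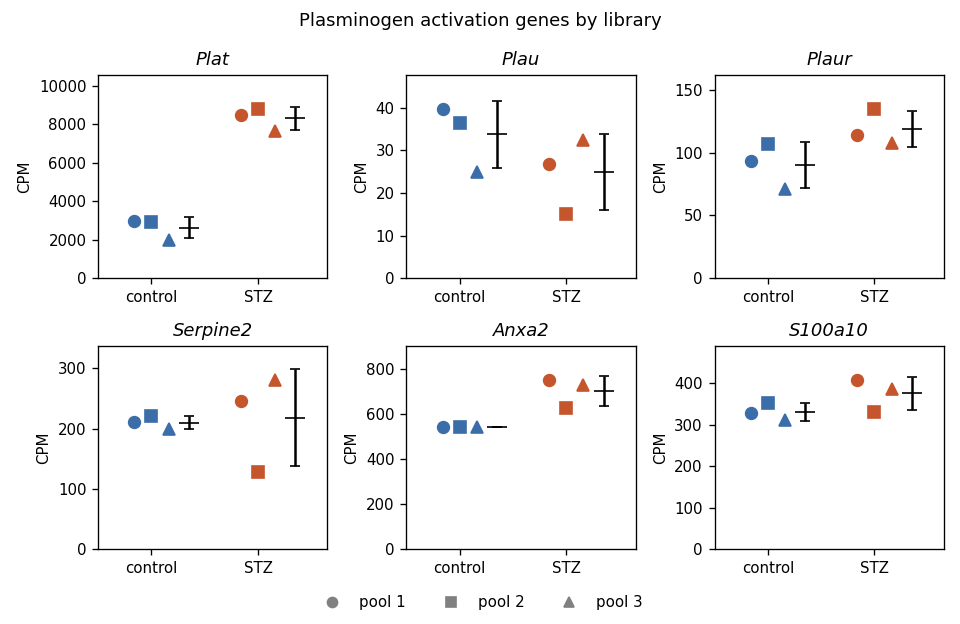
Level of each member in CPM (vertical axes, each from 0) in the 3 control pools (blue) and the 3 STZ pools (orange), with the marker shape giving the pool number and black bars the mean and SD. Plat separated the groups widely, from at most 2982 CPM in control to at least 7637 CPM in STZ, while Serpine2 was spread from 128 to 281 CPM within STZ.

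Per transcript length the members differed widely in abundance. In control pools the RPKM (CPM per kilobase of transcript) was 1039 ± 215 (SD, n = 3) for Plat, 508 ± 32.0 for S100a10, 395 ± 0.649 for Anxa2, 102 ± 5.33 for Serpine2, 64.9 ± 13.2 for Plaur and 14.4 ± 3.32 for Plau. No neighbours in this order overlapped between control pools. In STZ pools it was 3279 ± 238 for Plat, 577 ± 60.5 for S100a10, 510 ± 48.8 for Anxa2, 106 ± 38.9 for Serpine2, 85.3 ± 10.4 for Plaur and 10.6 ± 3.81 for Plau. The order of the means was the same, but S100a10 and Anxa2 overlapped between STZ pools, and so did Serpine2 and Plaur. In STZ pool 2 Serpine2 (62.4 RPKM) lay below Plaur (96.9 RPKM), the reverse of the other 5 libraries.

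Plat encodes the activator that acts on fibrin-bound plasminogen. It had 27136, 18089 and 9072 counts in control pools 1, 2 and 3, and 87526, 101892 and 94350 counts in STZ pools 1, 2 and 3. Scaled, this was 2982, 2905 and 2004 CPM in control and 8462, 8811 and 7637 CPM in STZ. The groups were far apart, with control pool 3 the lowest of all and the STZ pools close together. The log2 fold change was 1.66 ± 0.15 (SE; 95% interval 1.34 to 1.98; adjusted p = 2.10e-05 by edgeR quasi-likelihood), and only 37 of the 12786 tested genes had a larger absolute log2 fold change. By count, Plat was the most abundant gene in each of the 3 STZ libraries. It took 0.815%, 0.844% and 0.745% of all counts there, against 0.310%, 0.300% and 0.207% in control pools 1, 2 and 3, where it ranked 6, 6 and 15. By RPKM it ranked 2 in every STZ library, and 8, 11 and 22 in control pools 1, 2 and 3. The summed endothelial markers, which do not include Plat, were at 132% to 142% of their control mean in the STZ pools and Plat at 290% to 335% of its own. These markers differed among themselves, with log2 fold changes from -0.01 (Tie1) to 0.80 (Ehd3). By edgeR 5 of the 10 were called higher and 0 lower, beside 5.47% and 4.32% of all tested genes. The part of cell purity in the Plat difference was not tested.

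The other activator, urokinase, was scarce. Plau had 362, 227 and 113 counts in control pools 1, 2 and 3 and 278, 174 and 402 in STZ pools 1, 2 and 3. This was 39.8, 36.5 and 25.0 CPM in control and 26.9, 15.0 and 32.5 CPM in STZ. The groups overlapped, with STZ pool 2 lowest and control pool 3 within the STZ range. The log2 fold change was -0.46 ± 0.31 (SE; 95% interval -1.21 to 0.29; adjusted p = 0.438 by edgeR), an interval that holds both no difference and a difference of 1 on the log2 scale. The SD between pools was 23.0% of the mean in control and 36.0% in STZ.

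Plaur, the urokinase receptor, had 852, 668 and 321 counts in control pools 1, 2 and 3 and 1183, 1564 and 1328 in STZ pools 1, 2 and 3. Its levels were 93.6, 107.3 and 70.9 CPM in control and 114, 135 and 107.5 CPM in STZ. The groups did not overlap, but the highest control pool and the lowest STZ pool nearly met. The log2 fold change was 0.39 ± 0.14 (SE; 95% interval 0.07 to 0.70; unadjusted p = 0.0207, adjusted p = 0.125 by edgeR), so Plaur did not pass. Without control pool 2 the adjusted p was 0.0483 at a log2 fold change of 0.52. Without both control pool 3 and STZ pool 2 the log2 fold change was 0.15.

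**Figure D2:**
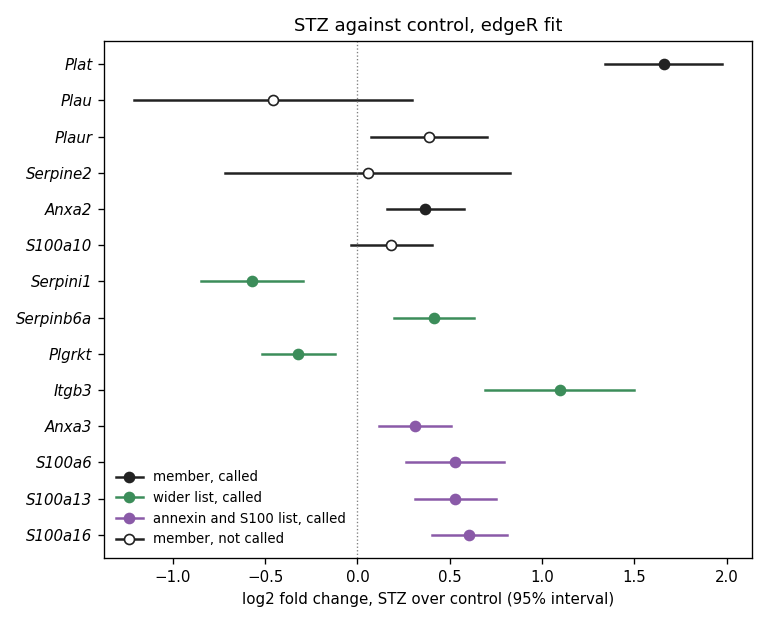
Log2 fold change of STZ over control (horizontal axis) with its 95% interval from the edgeR fit, for the 6 members (black, open where not called) and for the called genes of the wider plasminogen list (green) and of the annexin and S100 list (purple). Plat (1.66) and Itgb3 (1.10) lay farthest to the right, and the intervals of Plau and Serpine2 were the widest of the 6 members.

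Serpine2 encodes protease nexin-1, a serpin that inhibits urokinase, tPA and thrombin. It had 1918, 1374 and 900 counts in control pools 1, 2 and 3 and 2544, 1483 and 3468 in STZ pools 1, 2 and 3. The control pools were close together at 211, 221 and 199 CPM, whereas the STZ pools stood at 246, 128 and 281 CPM. STZ pools 1 and 3 lay above and STZ pool 2 below all control pools, so the SD rose from 5.21% of the mean in control to 36.6% in STZ. The log2 fold change was 0.05 ± 0.30 (SE; 95% interval -0.72 to 0.83; adjusted p = 0.940 by edgeR). Leaving out STZ pool 2 gave 0.33 and leaving out STZ pool 3 gave -0.17, neither past the threshold (adjusted p = 0.0717 and 0.804 by edgeR).

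STZ pool 2 was also the lowest STZ pool for Plau and for several marker lists. As a share of the control mean, Serpine2 was at 61.0% and Plau at 44.6% there, beside 78.7% for the summed podocyte markers, 36.6% for the mesangial and mural markers and 9.87% for the tubule and parietal markers. In STZ pool 3 the same values were 134% for Serpine2, 96.5% for Plau, 98.0% for podocyte, 67.9% for mesangial and mural and 75.9% for tubule and parietal markers. Control pool 3 had Plat at 76.2%, Plau at 74.0% and Plaur at 78.3% of the control mean, with podocyte markers at 73.6% and endothelial markers at 94.5%. The part of these other cell types in the values of Plau, Serpine2, Plat and Plaur was not tested.

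**Figure D3:**
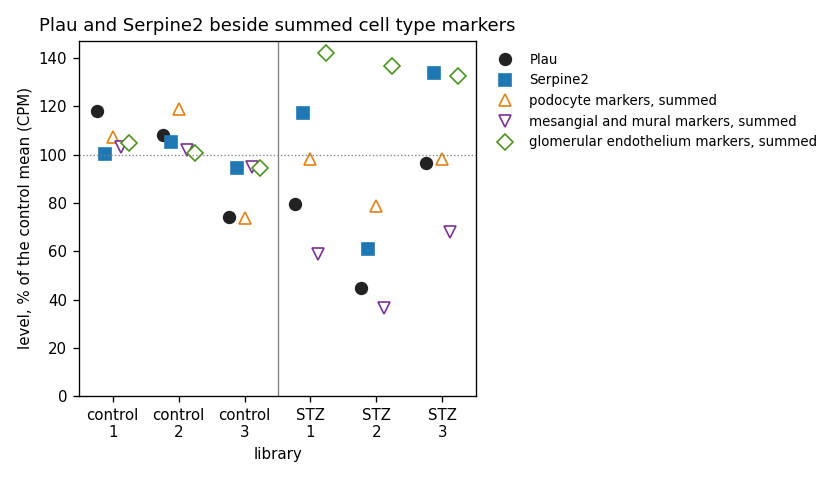
Plau and Serpine2 (filled) and the summed podocyte, mesangial and mural, and endothelial markers (open) in each library, as percent of the control mean of CPM (vertical axis from 0). In STZ pool 2 both genes and the podocyte and mesangial sums were at their lowest among the STZ pools, while the endothelial sum stayed at 137%.

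The annexin A2 receptor consists of Anxa2, which binds phospholipid and tPA, and S100a10, whose product p11 carries the plasminogen-binding end. Anxa2 had 4951, 3385 and 2455 counts in control pools 1, 2 and 3 and 7769, 7230 and 8993 in STZ pools 1, 2 and 3. Scaled, the control pools were nearly equal at 544, 544 and 542 CPM and the STZ pools stood at 751, 625 and 728 CPM. The control SD, 0.164% of the mean, was smaller than the counting error of such counts. It is therefore too small to be taken as the spread between control pools. All STZ pools were above all control pools, with STZ pool 2 nearest to them. The log2 fold change was 0.37 ± 0.10 (SE; 95% interval 0.16 to 0.58; adjusted p = 0.0304 by edgeR). Anxa2 no longer passed when control pool 1 was left out (adjusted p = 0.104). The adjusted p was likewise 0.0561 with control pool 2 left out, 0.165 with STZ pool 1 left out and 0.134 with STZ pool 3 left out.

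S100a10 had 2991, 2188 and 1403 counts in control pools 1, 2 and 3 and 4215, 3830 and 4767 in STZ pools 1, 2 and 3. These were 329, 351 and 309.9 CPM in control and 408, 331 and 386 CPM in STZ. STZ pools 1 and 3 lay above the controls and STZ pool 2 lay among them. The log2 fold change was 0.18 ± 0.10 (SE; 95% interval -0.04 to 0.40; adjusted p = 0.296 by edgeR), which excludes neither no difference nor one as large as that of Anxa2.

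Ratios of members within a library do not depend on the scaling between libraries. The ratio of Plat to Serpine2 per length was 11.5, 10.7 and 8.18 in control pools 1, 2 and 3 and 27.9, 55.8 and 22.1 in STZ pools 1, 2 and 3. All STZ pools were higher, by 1.70 on the log2 scale between group means (3.32 ± 0.26 against 5.02 ± 0.69; SD, n = 3 each). Without STZ pool 2 this difference was 1.31. The ratio of Plau to Plaur was 0.253, 0.202 and 0.210 in control pools 1, 2 and 3 and 0.140, 0.0663 and 0.180 in STZ pools 1, 2 and 3. It was lower in all STZ pools, with a log2 difference of -0.89, which was -0.47 without STZ pool 2. The ratio of S100a10 to Anxa2 was 1.28, 1.37 and 1.21 in control pools 1, 2 and 3 and 1.15, 1.12 and 1.12 in STZ pools 1, 2 and 3. It was lower in all STZ pools, by a log2 difference of -0.18. In a two-sided exact permutation test each of the 3 ratios had p = 0.1, which is the smallest p that 3 against 3 pools allow, and 0.1 after adjustment over the 3, so no ratio could pass 0.05.

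**Figure D4:**
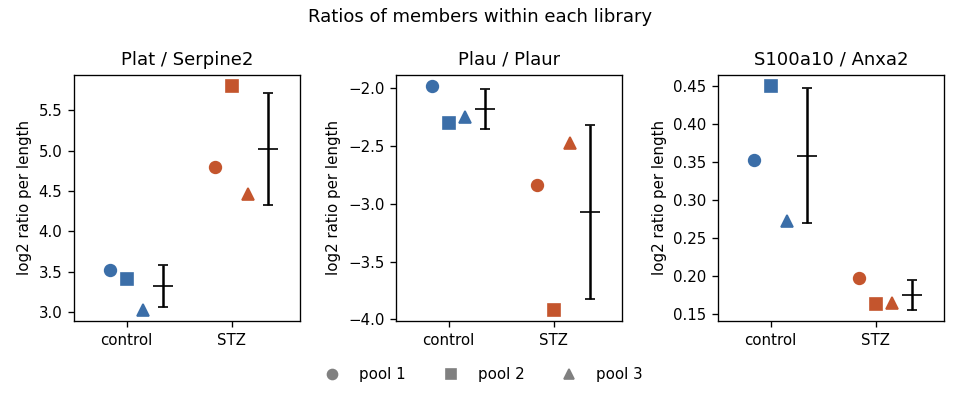
Log2 ratio per transcript length of 3 pairs of members within each library (vertical axes, not from 0), with the marker shape giving the pool number and black bars the mean and SD. In each panel the STZ pools (orange) lay wholly on one side of the control pools (blue), and STZ pool 2 was the farthest out for Plat over Serpine2 (5.80) and Plau over Plaur (-3.92).

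Of the wider plasminogen and fibrinolysis list, 29 of 45 genes were tested. Plasminogen (Plg) and the fibrinogen chains were not among the genes listed for the libraries. In this list 2 genes were called higher and 2 lower, or 13.8%, against 9.78% of all tested genes called in either direction. The list median was -0.11, and 25 genes did not pass. With any of control pool 1, control pool 2 and STZ pool 1 left out, the list held 2 calls. The called inhibitors went both ways. Serpinb6a, an intracellular serpin, rose by 0.41 ± 0.10 on the log2 scale from 74.4 to 99.5 CPM, and Serpini1, the tPA inhibitor neuroserpin, fell by 0.57 on the log2 scale (SE 0.13) from 92.8 to 62.7 CPM. Serpinb6a failed the test with control pool 2 (adjusted p = 0.0524 by edgeR), STZ pool 1 (0.0815) or STZ pool 3 (0.0895) left out, and Serpini1 with control pool 1 (0.0747) or control pool 2 (0.0542) left out. The protease inhibitors Serping1 and A2m did not pass, nor did Thbd, the thrombin receptor thrombomodulin, which stood at 889 ± 109 CPM in control and 927 ± 20.6 CPM in STZ (log2 fold change 0.06, 95% interval -0.16 to 0.29).

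Among surface partners, Itgb3, the integrin beta3 chain that can pair with uPAR, rose from 35.6 to 74.8 CPM (1.10 ± 0.18 on the log2 scale, adjusted p = 0.00480 by edgeR). Its control pool 3 stood at 48.8 CPM, between the other control pools at 29.3 and 28.7 CPM and the STZ pools at 71.7 to 76.7 CPM. Plgrkt, a plasminogen receptor with a C-terminal lysine, fell from 103 to 82.6 CPM (-0.32 ± 0.09, adjusted p = 0.0414), in the opposite direction to Anxa2. This call depended on the tool and the pools: DESeq2 (adjusted p = 0.0580) and limma-voom (0.0503) did not make it. Nor did edgeR after thinning (0.143), with a replicate block (0.0873) or without control pool 1 (0.147), control pool 3 (0.0835), STZ pool 1 (0.187) or STZ pool 3 (0.140). The other plasminogen-binding genes Eno1, Hmgb1, Itgam and Itgb2 and the other 5 tested urokinase receptor partners did not pass in edgeR, while DESeq2 called 1 of these partners, the collagen receptor gene Mrc2, lower. By edgeR 0 of 3 tested clearance receptors and 0 of 7 tested substrates were called, while at an unadjusted p under 0.05 these were 3 (Lrp2 and Lrpap1 higher, Lrp1 lower) and 1 (Mmp2, lower), against 24.2% of all tested genes. Lrp1, which takes up complexes of activator and serpin, had a mean of 169 CPM in control and 105.0 CPM in STZ (log2 fold change -0.69 ± 0.26, SE; adjusted p = 0.177 by edgeR). It was called lower by DESeq2 (adjusted p = 0.00273) and limma-voom (0.0415), and by edgeR without STZ pool 2 (0.0239, at -0.45) or STZ pool 3 (0.0167, at -0.94). DESeq2 also called the matrix protease gene Mmp2 lower, and limma-voom called 0 substrates. The mesangial and mural markers had a median log2 fold change of -0.85, with 3 of 11 called lower by edgeR, beside 4.32% of all tested genes. Their part in the Lrp1 and Mmp2 values was not tested.

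Of the annexin and S100 relatives, 18 of 25 were tested and 4 were called higher and 0 lower, 22.2% against the 9.78% of all genes, with a list median of 0.24. The called genes were S100a16 (216 to 329 CPM, log2 fold change 0.61 ± 0.09), S100a13 (86.9 to 126 CPM, 0.53 ± 0.10), S100a6 (228 to 329 CPM, 0.53 ± 0.12) and Anxa3 (340.0 to 422 CPM, 0.31 ± 0.09), with adjusted p of 0.00123, 0.00452, 0.0155 and 0.0445 by edgeR. S100a6, a calcium-binding protein that also pairs with annexins, had its lowest STZ pool in pool 2 (262 CPM), as S100a10 and Anxa2 did. The other 7 tested annexins did not pass, among them Anxa5 at 366 CPM in control and 358 CPM in STZ (log2 fold change -0.04) and Anxa1 at 166 and 175 CPM (0.08). S100a6 no longer passed with control pool 1 (adjusted p = 0.0734 by edgeR), STZ pool 1 (0.0865) or STZ pool 3 (0.0653) left out. Anxa3 failed in edgeR with any 1 of the 6 pools left out (adjusted p of 0.0566 to 0.194). It also failed with upper-quartile scaling (0.0556), after thinning (0.0864) and with a replicate block (0.0972). The list held 2 calls with any of control pool 1, STZ pool 1 and STZ pool 3 left out.

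The patterns of the members were also set beside those of other genes with a mean log2 CPM of at least 3. Genes whose symbols have the form of predicted genes, clones or pseudogenes were left out. The measure was the root mean square difference of log2 CPM, each gene centred on its own mean over the 6 libraries. Among 10131 candidates the nearest to Plat were Ucp2 (difference 0.13), a mitochondrial carrier, Cdc42ep4 (0.14) and Spsb1 (0.14). Nearest to Anxa2 were Hsp90ab1 (0.03), Srxn1 (0.04) and Hsp90aa1 (0.04), where the Hsp90 genes encode cytosolic chaperones and Srxn1 encodes sulfiredoxin. S100a10 was nearest to Psmc1, Ahcy and Ghitm (all 0.03), Plaur to Clca1 (0.07), Leprel4 (0.08) and Sgpp1 (0.08), Serpine2 to Figf (0.08) and Bgn (0.10), and Plau to Gpc3 (0.11), Cadm4 (0.11) and Fat1 (0.12). Among the members themselves the closest pair was Anxa2 and S100a10 (0.11), followed by Plaur with S100a10 and Plaur with Anxa2 (both 0.25). Plau was closest to Serpine2 (0.29), and the farthest pair was Plat and Plau (1.15). These differences describe 6 libraries that fall into the same 2 groups, with every STZ library deeper, and no test was made of them.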

How the data were processed

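The 6 deposited tables hold 1 expected count per gene and library, with RefSeq accession, coordinates and transcript length. Per the submitters' processing notes the build is mm10 and limma was used. How reads were aligned and counted, with or without strand, and how genes were filtered is not stated in them or in the file headers. Values were multiples of 0.5 (2251 genes had a fractional value, no member did), and 34 blank cells were read as 0. Starts were shifted by 1 to 1-based positions, since 2321 of 5850 genes whose end matched a GENCODE M21 transcript then matched its start, against 175 as listed.

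Rounded values entered edgeR 4.0.16 (R 4.3.3), with filterByExpr, TMM and a robust two-sided quasi-likelihood test, p adjusted by Benjamini-Hochberg over 12786 genes and a threshold of 0.05. The SE is the log2 fold change over the root of F. Precision rests on the total counts per library (4387339 to 12662371.5) and on the spread between pools. The members and lists were chosen with earlier results of these data known. Named genes were the members, called list genes, and the 3 genes nearest each member. Some genes that the rules took are not reported here, and the wider list is counted without them. Other list genes were named after their values were seen. Alternatives were other normalizations, filters, DESeq2 1.42.0, limma-voom 3.58.1, rounding, thinning, a replicate block and leaving out libraries. Leaving out control pool 3 and STZ pool 2 together, and all alternatives for the annexin list and for single genes outside the members, were added after seeing the data.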

Additional observations from a re-analysis of the deposited data

How the results depend on the processing

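Plat was called higher under each of the 17 alternatives, with log2 fold changes of 1.45 to 1.76. Plau and S100a10 were called under none. The labels do not say whether the replicate numbers pair the pools. Deviations from the group mean correlated at 0.119, -0.128 and -0.163 for same-numbered pools and at -0.243 to 0.295 for the others. With so few pools these values cannot show whether pools are paired. A replicate block in edgeR called 1 gene of the wider list lower and left Anxa2 at 0.36 (adjusted p = 0.0742). The block took Plaur past the threshold at 0.40 (adjusted p = 0.0316) and put Serpine2 at -0.016. Serpine2 was also below 0 by limma-voom (-0.021) and without STZ pool 1 (-0.04) or STZ pool 3 (-0.17). Leaving out 1 library gave 662 to 1291 called genes (426 to 695 higher, 236 to 596 lower; 1251, 699 and 552 with all), 1 to 2 called members (1 to 2 higher), 2 to 6 genes of the wider list (1 to 2 higher, 0 to 4 lower) and 2 to 6 annexin and S100 relatives (2 to 6 higher). It gave Plaur log2 fold changes of 0.25 to 0.52, Serpine2 -0.17 to 0.33 and Anxa2 0.32 to 0.44. Of the wider list, DESeq2 called 4 lower and thinning to the smallest library 1. Without both control pool 3 and STZ pool 2 1626 genes were called (815 higher, 811 lower), Plaur stood at 0.146, the wider list had 9 calls (7 lower) and the annexin and S100 list 8 (8 higher), while the called members were again 2. The causes were not tested. The ratios kept their direction under all alternatives run, and no other member changed its side of the threshold. Plau had the fewest counts of the members (113 to 402 per pool), and after thinning its log2 fold change was -0.54 (adjusted p = 0.19).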
